A study of Mustela putorius furo and Mus musculus with 4 samples.

Results

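The Id genes Id1, Id2, Id3 and Id4 were taken by name from single-cell count tables of the developing cortex. They are 4 of the 17170 genes of a mouse table and 4 of the 22008 genes of a ferret table. The mouse table held cells of 1 control library and 1 Smo cKO library from embryonic day 18 (strain CD1), and the ferret table held cells of 2 samples of wild type cortex from embryonic day 39. Controls are called wild type littermates in the labels and Smo F/F in the study's methods, and the Smo cKO embryos were hGFAP-Cre; Smo F/F, so that the Hedgehog signal transducer Smo was deleted where the human GFAP promoter drives Cre, which includes the radial glia of the cortex. Ventricular cells of both genotypes had been labelled with CellTrace Yellow (Flash-Tag in the labels) at embryonic day 17, and cells were sorted before capture, so shares of cell types are not those of the tissue. The ferret cells came from 1 embryo, and nothing tied its 2 barcode sets to an animal or a hemisphere of its own. The mouse barcodes carried 2 suffixes, assigned to genotype by their numbers of cells, 10524 for control and 7596 for Smo cKO. If that assignment were wrong, every direction between genotypes below would turn round. Each genotype has a single library, so genotypes could not be tested against each other, and all intervals are 95% intervals that cover counting error only.

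Id proteins are helix-loop-helix proteins that lack the basic region by which their relatives bind DNA. They pair with the E proteins encoded by Tcf3, Tcf4 and Tcf12, and so keep these partners from forming DNA-binding pairs with proneural factors such as Neurog2. Id genes are known as direct targets of BMP signalling through SMAD proteins, and in the embryonic brain they are best known in radial glia and blood vessels.

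The members are separate genes on 4 chromosomes. In the GRCm38 assembly with GENCODE M21 annotation, Id1 lies at chr2:152736251-152737410 on the plus strand, Id2 at chr12:25093799-25097140 on the minus strand, Id3 at chr4:136143497-136145755 on the plus strand and Id4 at chr13:48261228-48266026 on the plus strand. Their coding sequences hold 148, 134, 119 and 161 codons before the stop. The family shares its helix-loop-helix coding sequence, which is shown here because it is what makes the 4 genes a family and where their reads could be confused. The stretch is the 60 bases, in frame, with the most residues in common, it lies in the first coding exon of each gene, and capitals mark the 42 bases that all 4 members share. Each is printed on the coding strand.
Id1 (chr2:152736587-152736646): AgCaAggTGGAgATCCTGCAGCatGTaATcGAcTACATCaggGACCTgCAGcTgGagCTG
Id2 (chr12:25095774-25095833): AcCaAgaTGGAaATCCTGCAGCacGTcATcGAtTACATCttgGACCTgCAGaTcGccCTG
Id3 (chr4:136144071-136144130): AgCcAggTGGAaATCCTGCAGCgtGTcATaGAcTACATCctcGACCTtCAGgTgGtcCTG
Id4 (chr13:48261762-48261821): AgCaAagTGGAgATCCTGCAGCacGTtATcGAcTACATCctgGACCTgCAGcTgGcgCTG
Of the 20 codons, 13 encode the same residue in all 4 members. Pairs of members were 78.3% to 90% identical over these bases, Id1 and Id4 being the most alike. Over whole transcripts, the longest run shared exactly by any pair of members was 19 bases.

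Cells were kept with 750 to 5000 detected genes and under 10% mitochondrial unique molecular identifiers (UMIs, each a counted RNA molecule). They numbered 10498 control, 7209 Smo cKO, 10185 ferret set 1 and 13052 ferret set 2 cells, with median depths of 4033.5, 4836, 2556 and 3563 UMIs and totals of 30548876 to 56090792 UMIs. The fewest UMIs of any control barcode were 2454 against 653 in Smo cKO, so the libraries had not been cut at the same depth. The libraries shared 28 barcode sequences in mouse and the ferret sets 38. Each cell took the class with the most of its 8 marker genes detected, at least 3, and is called radial glia-like (RG-like), multipotent intermediate progenitor-like (MIPC-like), intermediate progenitor-like (IPC-like), pyramidal neuron-like (PyN-like), interneuron-like (IN-like), microglia-like, endothelial-like or mural-like; cells with no leading class stayed unnamed, and RG-like and IPC-like cells with at least 3 of 8 mitotic markers are called cycling. RG-like cells numbered 1816 in control and 1412 in Smo cKO, with medians of 6 and 7 of the 8 RG markers, of 1 IPC marker in each and of 0 and 1 PyN markers. Of these, 71 control and 34 Smo cKO cells held the minimum of 3 RG markers, and in 197 and 108 the RG class led by a single marker. Smo itself had 140 UMIs in control RG-like cells, 14.9 CPM (UMIs per 1000000 UMIs of the class), and 5 UMIs or 0.483 CPM in Smo cKO, a ratio of 0.0324 (interval 0.0103 to 0.0773).

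Among mouse radial glia, intermediate progenitors and pyramidal neurons, Id1, Id3 and Id4 were highest in radial glia and Id2 in the neurons. The 32 control endothelial-like cells, too few for the minimum of 50, held more Id1 and Id3 than radial glia, at 504 and 623 CPM. In control cells, Id1 stood at 93.8 CPM (interval 87.7 to 100) in RG-like, 8.21 CPM in IPC-like and 3.13 CPM in PyN-like cells. Id3 stood at 133 CPM in RG-like cells against 2.68 CPM in IPC-like and 2.47 CPM in PyN-like cells. Id4 went from 158 CPM in RG-like cells to 11.5 and 9.55 CPM. All 3 were lower along the path from progenitor to neuron by more than 10-fold, with IPC-like over RG-like ratios of 0.0875, 0.0202 and 0.0728. Id2 ran the other way, from 139 CPM in RG-like to 317 CPM in IPC-like and 596 CPM in PyN-like cells, 4.27 times its RG-like level (4.01 to 4.56). In the Smo cKO library Id2 had the same order, at 156, 523 and 833 CPM, and the other members were again highest in RG-like cells. In IPC-like and PyN-like cells of that library Id1 stood at 5.42 and 1.83 CPM, Id3 at 6.80 and 7.60 CPM and Id4 at 15.6 and 15.5 CPM. Of all genes with at least 50 UMIs in both classes of control cells together, 22.8% were at least 1.5-fold higher in PyN-like than in RG-like cells and 25.8% at least 1.5-fold lower, and for IPC-like against RG-like cells these shares were 14.7% and 22.8%. In Smo cKO the shares were 25.1% and 26.6% for PyN-like and 17.4% and 22.2% for IPC-like cells, so 1 member higher and 3 lower is to be read against frequent differences between these classes.

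Cells with few or no UMIs of an Id gene are taken here as a gauge of the level that free RNA can add. Id4 had no UMI in 88 control microglia-like cells, where 3 counts, the limit taken for a count of 0, would be 3.41% of cells with a UMI, which limits cells with a UMI and not cells expressing the gene, and 1 UMI in 158 Smo cKO microglia-like cells. In control, Id1 and Id3 stood no higher in IPC-like and PyN-like cells than in microglia-like cells, at 10.9 and 4.35 CPM, and these levels are read as background. Id4 in IPC-like cells (9.73 to 13.6 CPM) and PyN-like cells (7.25 to 12.3 CPM) stood above the 4.01 CPM that the microglia-like cells allow. Id2 had a UMI in 83.0% of control microglia-like cells, at a median depth of 8461 UMIs, in 74.9% of PyN-like cells at 3263 UMIs, and in 16.7% of MIPC-like cells at 6308.5 UMIs. These shares did not follow depth, and in MIPC-like cells Id2 stood at 39.2 CPM (27.3 to 54.5), below every other class with at least 50 control cells.

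MIPC-like cells, which carry the glial lineage markers Egfr, Olig1 and Olig2 among others, held Id1 near its RG-like level but little Id4. In 75 of the 126 control cells the class led by 1 marker, and the median cell held 3 RG markers. The part of this overlap with RG-like cells in the Id levels was not tested. In the 126 control cells of this class, Id1 stood at 71.6 CPM (55.1 to 91.4), an interval that overlapped that of RG-like cells. Id3 stood at 34.7 CPM (23.6 to 49.2) and Id4 at 13.4 CPM (6.94 to 23.5), both below their RG-like intervals. The Smo cKO library held 35 such cells, under the minimum of 50 set for a class, and is not described for it.

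**Figure D1:**
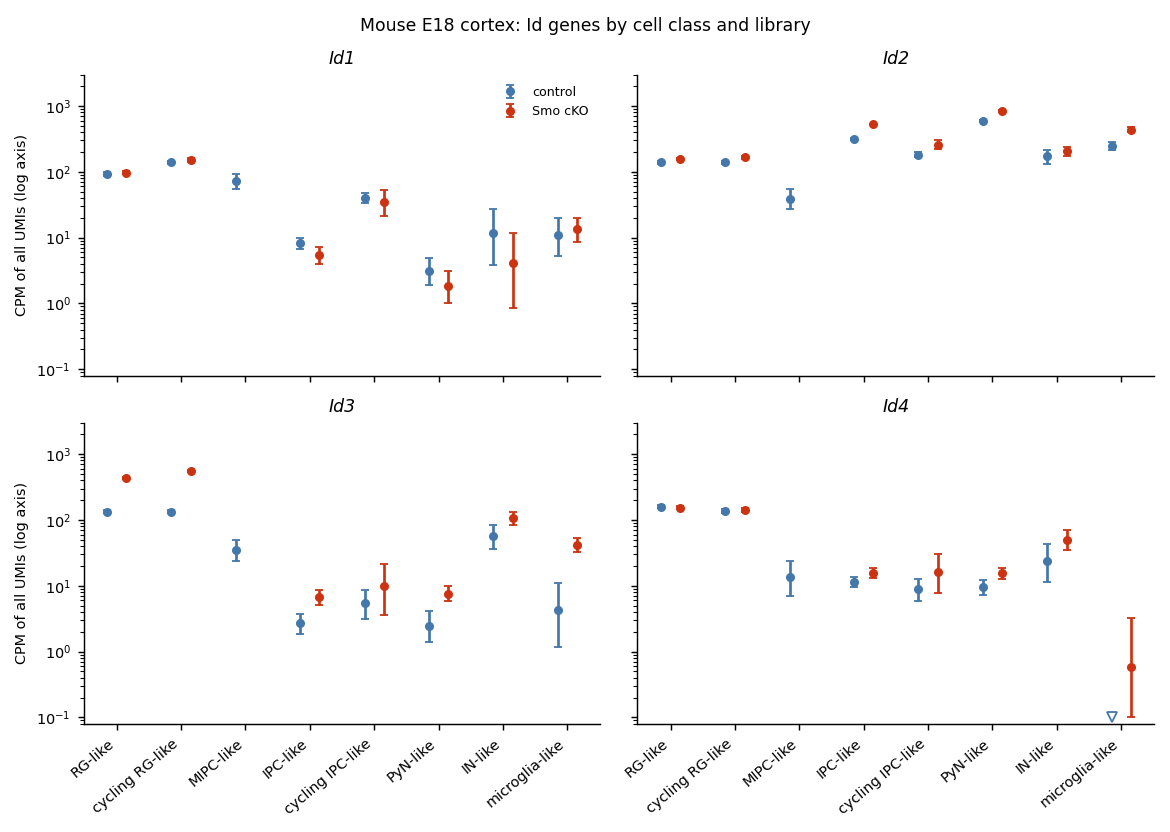
CPM of each Id gene (log axis) in each mouse cell class with at least 50 cells in a library, control in blue and Smo cKO in red; bars are exact Poisson 95% intervals, cut at 0.1 CPM, and open triangles at the foot mark classes with no UMI. Id1, Id3 and Id4 are highest in the RG-like classes and Id2 in PyN-like cells, and the libraries stand apart for Id3 in RG-like cells (133 and 433 CPM).

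Id1 was higher in cycling cells of both progenitor classes and both libraries. Cycling RG-like cells held 139 CPM of Id1 in control against 93.8 CPM in other RG-like cells, a ratio of 1.48 (1.36 to 1.62), and 152 against 97.3 CPM in Smo cKO, a ratio of 1.56 (1.42 to 1.71), where 8.58% of Smo cKO genes were at least 1.5-fold higher. Among IPC-like cells the ratio of cycling to other cells was 4.82 (3.69 to 6.32) in control, 39.6 against 8.21 CPM, and 6.38 (3.62 to 10.9) in Smo cKO. The Id1 level of the non-cycling IPC-like cells lay within the interval of microglia-like cells in control (5.22 to 20.0 CPM), so the size of these ratios rests on a level read as background. Of all genes, 12.2% were at least 1.5-fold higher in cycling than in other control IPC-like cells, and 12.7% in Smo cKO. Id2 was lower in cycling IPC-like cells, with ratios of 0.576 (0.527 to 0.629) and 0.494 (0.418 to 0.579), where 19.1% of genes in control and 26.4% in Smo cKO were at least 1.5-fold lower. Cycling cells were deeper, with a median of 6379 UMIs against 4663.5 in control RG-like cells. Id4 was slightly lower in cycling RG-like cells of control, with a ratio of 0.866 (0.803 to 0.934), and Id3 did not differ there beyond counting error, with a ratio of 1.00 (0.925 to 1.08). In Smo cKO the Id3 ratio in RG-like cells was 1.26 (1.21 to 1.32), and in IPC-like cells the Id3 ratios were 2.01 (1.05 to 3.69) in control and 1.45 (0.512 to 3.35) in Smo cKO.

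Between genotypes, Id3 stood apart from the other members in radial glia. In RG-like cells Id3 had 1250 UMIs, 133 CPM (126 to 141), in control and 4489 UMIs, 433 CPM (421 to 446), in Smo cKO. The ratio was 3.25 (3.06 to 3.47), rank 70 from the top among 11090 genes with at least 50 UMIs. Id1 stood at 93.8 and 97.3 CPM, a ratio of 1.04 (0.946 to 1.14). Id2 stood at 139 and 156 CPM, a ratio of 1.12 (1.04 to 1.21). Id4 stood at 158 and 154 CPM, a ratio of 0.972 (0.905 to 1.04). Of the 4 members, 1 was past 1.5-fold and higher in Smo cKO, where 6.25% of all genes were, and none was past 1.5-fold and lower, where 5.62% were. The median log2 ratio of all genes was -0.0040, so genes as a whole were not shifted.

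**Figure D2:**
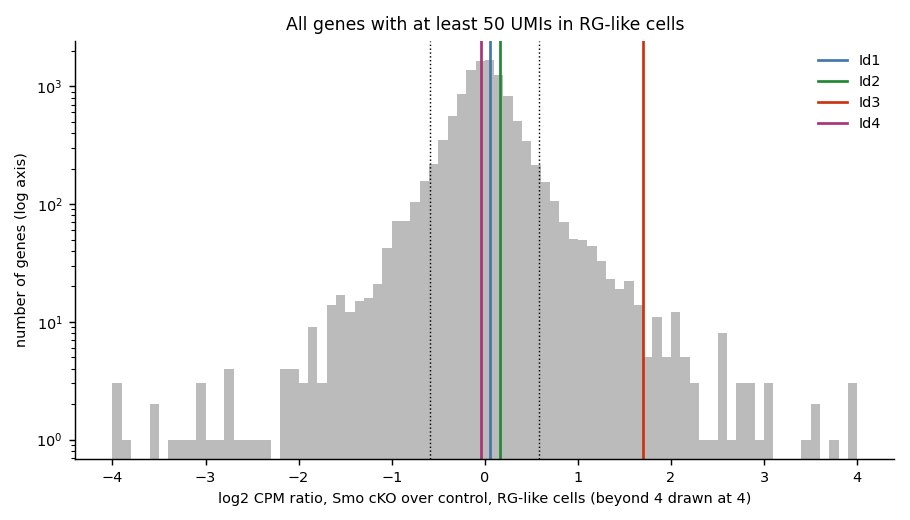
Number of genes (log axis) by log2 CPM ratio of Smo cKO over control in RG-like cells, for genes with at least 50 UMIs and a UMI in each library; coloured lines mark the 4 Id genes and dotted lines the 1.5-fold limits. Id3 lies far to the right, at rank 70 of 11090, and the other members lie between the dotted lines.

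The order was the same at equal depth. At 2000 UMIs per cell, the expected share of RG-like cells with an Id3 UMI was 14.6% in control and 34.1% in Smo cKO, against unadjusted shares of 23.7% and 52.3%. For Id1 the shares at 2000 UMIs were 14.6% and 15.8%, for Id2 20.4% and 22.6%, and for Id4 25.8% and 24.9%.

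Id3 RNA was unevenly spread over radial glia, more so than that of the other members. In control, 78 of 1816 RG-like cells, or 4.30%, held 5 or more Id3 UMIs and together 50.6% of all Id3 UMIs of the class. In Smo cKO, 294 of 1412 cells, or 20.8%, held 5 or more and together 80.6% of the UMIs, with up to 41 in a cell. Even so, 47.7% of Smo cKO RG-like cells had no Id3 UMI, against 76.3% in control. The variance of Id3 UMIs over cells was 5.34 and 11.1 times the mean in control and Smo cKO, against 1.64 to 2.76 times for Id1, Id2 and Id4, where Poisson counting at 1 depth gives 1. The cut of 5 UMIs was the same in both libraries, while the mean was 0.688 Id3 UMIs per cell in control and 3.18 in Smo cKO. The top 10% of cells by Id3 UMIs held 75.4% of them in control and 57.3% in Smo cKO. By that measure Id3 was less concentrated in Smo cKO. These shares were not adjusted for depth, whose median was 4663.5 UMIs in control and 6970 in Smo cKO RG-like cells.

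**Figure D3:**
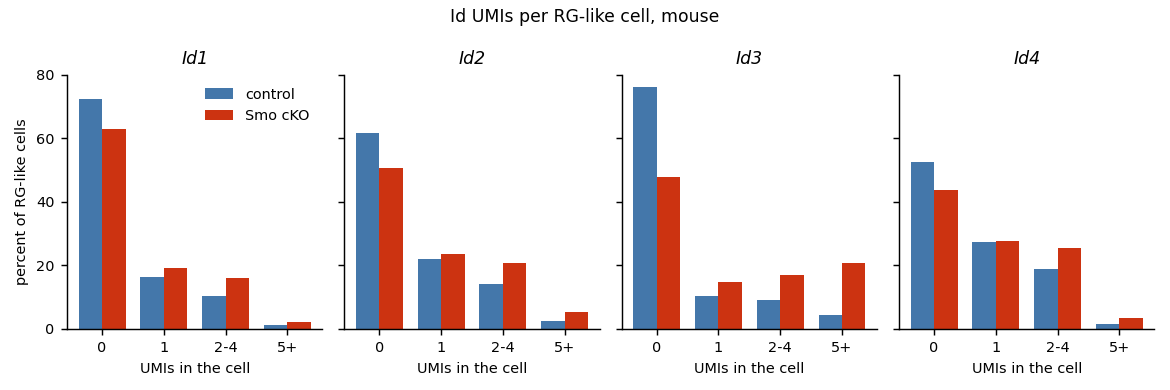
Percent of RG-like cells of each library (control blue, Smo cKO red) with 0, 1, 2 to 4 or 5 and more UMIs of each Id gene. For Id3, 4.30% of control and 20.8% of Smo cKO cells hold 5 or more UMIs, while the bars of the other members differ less.

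The Id3 difference was also present in dividing radial glia, with a higher ratio. In cycling RG-like cells Id3 stood at 133 CPM in control and 546 CPM in Smo cKO, a ratio of 4.10 (3.84 to 4.38) and rank 25 of 10475 genes, of which 4.38% were at least 1.5-fold higher and 5.87% at least 1.5-fold lower. The other members had ratios of 1.09 for Id1, 1.19 for Id2 and 1.04 for Id4 in these cells. The interval of the Id3 ratio in cycling cells lay above that in other RG-like cells, and the difference between the ratios was not tested.

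Outside radial glia, Id2 was the abundant member that differed between genotypes. In IPC-like cells Id2 stood at 317 CPM (307 to 327) in control and 523 CPM (508 to 539) in Smo cKO, a ratio of 1.65 (1.58 to 1.72), in a class where 5.19% of genes were at least 1.5-fold higher. In PyN-like cells it stood at 596 and 833 CPM, a ratio of 1.40 (1.34 to 1.46), under 1.5-fold, where 3.65% of genes were at least 1.5-fold higher. The expected share of cells with an Id2 UMI at 2000 UMIs per cell was 42.2% and 58.1% in IPC-like cells and 60.2% and 71.1% in PyN-like cells. Id2 was thus higher in Smo cKO in the classes in which its level was high, and by 1.12 times in RG-like cells. Many IPC-like and PyN-like cells lay near their borders: in 897 of 2869 control and 610 of 1659 Smo cKO IPC-like cells the class led by 1 marker, so the level per cell and the mix of early and late cells were not separated here.

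Id3 had ratios of 2.53 (1.63 to 3.99) in IPC-like and 3.08 (1.72 to 5.85) in PyN-like cells, at 6.80 and 7.60 CPM in Smo cKO. Id4 stood at 9.55 and 15.5 CPM in PyN-like cells, a ratio of 1.62 (1.17 to 2.26). In the same cells the 8 RG markers summed to 403 and 495 CPM in IPC-like and 150 and 166 CPM in PyN-like cells of control and Smo cKO. Id1 went the other way in IPC-like cells, with 104 UMIs or 8.21 CPM in control and 47 UMIs or 5.42 CPM in Smo cKO, a ratio of 0.660 (0.457 to 0.940), where 2.75% of genes were at least 1.5-fold lower. In control these Id1 and Id3 levels were not above those of microglia-like cells, so the Id1 and Id3 ratios rest on levels read as background.

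Microglia, the resident immune cells of the brain, also differed in Id3 and Id2. In microglia-like cells Id3 had 4 UMIs in 88 control cells, 4.35 CPM (1.19 to 11.1), and 72 UMIs in 158 Smo cKO cells, 42.0 CPM (32.8 to 52.8). The ratio was 9.64 (3.61 to 36.3), and at 2000 UMIs per cell the expected share of cells with an Id3 UMI was 1.09% against 10.5%. The RG markers summed to 77.2 CPM in control and 60.6 CPM in Smo cKO microglia-like cells. There were 5.63 Id3 UMIs for every 100 UMIs of RG markers in control and 69.2 in Smo cKO microglia-like cells, against 2.91 and 7.66 in RG-like cells. The part of mixed droplets and free RNA in the microglia values was not tested. Id2 stood at 247 CPM (216 to 281) and 438 CPM (408 to 471), a ratio of 1.77 (1.53 to 2.07). In this small class 13.3% of all genes were at least 1.5-fold higher and 12.6% at least 1.5-fold lower. Smo had 0 UMIs in control and 5 UMIs in Smo cKO microglia-like cells, too few in control to show a deletion.

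**Figure D4:**
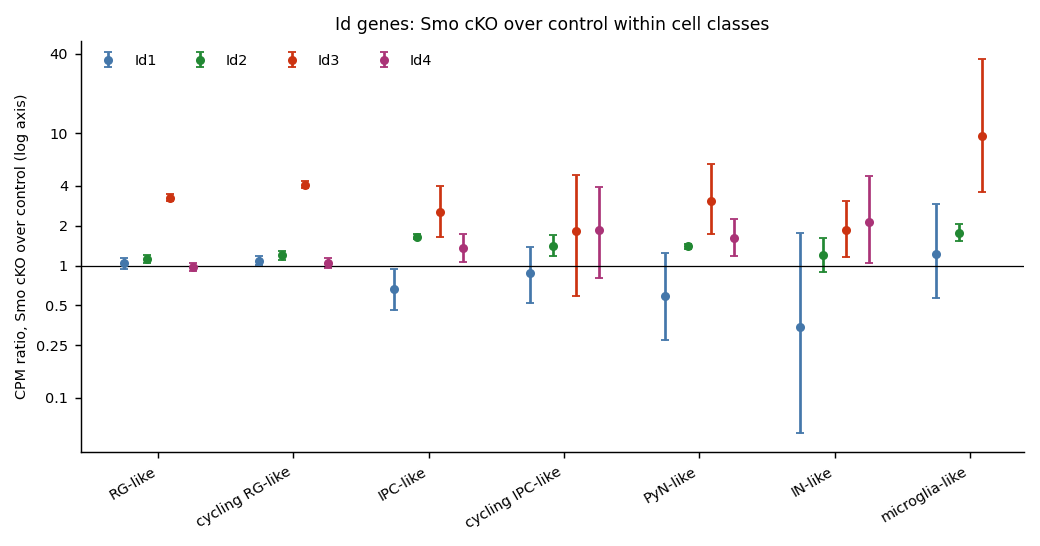
Ratio of CPM in Smo cKO over control (log axis) for each Id gene within each mouse class with at least 50 cells in both libraries; bars are exact 95% intervals for counting error, and genes without a UMI in either library are not drawn. Id3 lies above 1 in the RG-like classes (3.25 and 4.10), Id2 is 1.65 in IPC-like cells, and Id1 and Id4 lie close to 1 in the RG-like classes.

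Interneuron-like cells of different marker kinds differed in their Id genes, and their origin itself was not measured. Lhx6 marks interneurons of the medial ganglionic eminence and Nr2f2 is common in those of the caudal one, and IN-like cells were divided by 6 markers of each kind. In Smo cKO, the 75 Lhx6 IN-like cells held 73 Id3 UMIs, 294 CPM, and the 112 Nr2f2 IN-like cells held 2, 5.66 CPM. Id4 had the opposite pattern, with 1 UMI, 4.03 CPM, in Lhx6 IN-like and 32 UMIs, 90.6 CPM, in Nr2f2 IN-like cells, a ratio of 22.5 (3.75 to 915). The control library held under 50 cells of each kind but gave the same order, with 15 Id3 UMIs in 39 Lhx6 IN-like and 0 in 36 Nr2f2 IN-like cells, and 0 and 8 UMIs of Id4. Id2 was present in both kinds, at 157 CPM in Lhx6 and 258 CPM in Nr2f2 IN-like cells of Smo cKO. IN-like cells as a whole held 56.9 CPM of Id3 in control and 106 CPM in Smo cKO, a ratio of 1.87 (1.17 to 3.09), where 13.7% of genes were at least 1.5-fold higher. Within the Lhx6 kind Id3 stood at 111 CPM in control and 294 CPM in Smo cKO, and the libraries differed in their mix of the kinds.

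Within RG-like cells, Id3 went with Hopx, a marker of outer and maturing radial glia and a BMP-responsive gene. In control, cells with a Hopx UMI held 173 CPM of Id3 and cells without one 55.4 CPM, a ratio of 3.11 (2.65 to 3.67). In Smo cKO the values were 496 and 64.2 CPM, a ratio of 7.72 (6.30 to 9.55). The cells without a Hopx UMI, at 55.4 and 64.2 CPM of Id3, were 644 of 1816 in control and 245 of 1412 in Smo cKO. Hopx itself was 1.70 times higher in Smo cKO RG-like cells, and that library was deeper, so these groups were not matched. Cells with a Hopx UMI were a little deeper, with medians of 4751 against 4524 UMIs in control and 7162 against 6156 UMIs in Smo cKO. Id1 also went with Hopx, with ratios of 1.43 (1.23 to 1.67) in control and 2.41 (1.87 to 3.14) in Smo cKO. Id2 and Id4 differed less, with ratios of 1.28 and 1.13 in control and 1.22 and 1.38 in Smo cKO. Gfap, an astroglial filament gene, went with Id3 in control, at 188 CPM with a Gfap UMI and 111 CPM without, but hardly in Smo cKO, at 459 and 412 CPM.

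RG-like cells with a UMI of Eomes, the transcription factor of intermediate progenitors, held less Id1, Id3 and Id4 and more Id2. Eomes is also a marker of the IPC-like class, and the part of mixed droplets and free RNA in this split was not tested. In control, Id3 stood at 88.1 CPM with and 150 CPM without an Eomes UMI, a ratio of 0.586 (0.505 to 0.677), and in Smo cKO at 221 and 497 CPM, a ratio of 0.444 (0.405 to 0.486). The Id4 ratios were 0.628 and 0.511 and the Id1 ratios 0.606 and 0.610 in control and Smo cKO. The Id2 ratios were 1.38 (1.23 to 1.55) and 2.00 (1.81 to 2.22). The Eomes-bearing cells were deeper in both libraries, with medians of 5776 against 4426 UMIs in control. Cells with a UMI of Egfr, the growth factor receptor that marks gliogenic progenitors, held less Id4 in control, 104 against 164 CPM, a ratio of 0.634 (0.512 to 0.778), and were too few in Smo cKO, at 35, to describe.

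The members tended to be found together in radial glia, apart from Id2 with Id4. RG-like cells with an Id3 UMI held 2.54 (2.22 to 2.91) times the Id1 of those without in control and 3.44 (2.93 to 4.05) times in Smo cKO. For Id4 the ratios were 1.49 and 1.67. Cells with and without an Id4 UMI did not differ in Id2 beyond counting error, with ratios of 1.01 (0.901 to 1.12) in control and 0.945 (0.854 to 1.05) in Smo cKO. Cells with a UMI were deeper than cells without, by medians of 5139.5 against 4511.5 UMIs for Id3 in control, and CPM divides by that depth.

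Of the factors that Id proteins oppose, Neurog2, which starts the pyramidal neuron programme, was lower in the radial glia that carried Id3. Between RG-like cells with and without an Id3 UMI it had ratios of 0.662 (0.550 to 0.793) in control and 0.287 (0.253 to 0.324) in Smo cKO. Hes6, which works against Hes1, had ratios of 0.613 and 0.406. The Notch target Hes5 was higher, at 1.57 and 1.85 times, and so were Hey1, at 1.70 and 1.88 times, and Hes1, at 1.34 and 1.35 times. The E protein gene Tcf4 was alike in both kinds of cells, with ratios of 0.980 and 0.992, and Tcf3 had ratios of 0.902 and 0.924. Neurog2 and Hes5 also served as class markers, so that the choice of RG-like cells bears on their levels.

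Between genotypes, the partner and basic helix-loop-helix list had 15 of 16 genes with enough UMIs in RG-like cells, of which 2 were past 1.5-fold and higher in Smo cKO, 4 past it and lower, and 9 not past it, beside 6.25% of all genes higher and 5.62% lower. The list median log2 ratio was 0.046 beside -0.0040 for all genes. Neurog2 stood at 82.8 and 128 CPM (ratio 1.55) and Hey1, a Notch and BMP target, at 30.7 and 52.8 CPM (ratio 1.72). Lower in Smo cKO were the neuronal factors Neurod1 (ratio 0.451) and Neurod6 (0.615) and the oligodendrocyte lineage factors Olig1 (0.400) and Olig2 (0.140, from 21.3 to 2.99 CPM). The 3 E protein genes were under 1.5-fold, at 1.13 for Tcf3, 1.29 for Tcf4 and 0.997 for Tcf12, against 3.25 for Id3.

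The BMP pathway list, the signal that Id genes are known to report, had 17 of 26 genes with enough UMIs in RG-like cells. Of these, 3 were past 1.5-fold and higher in Smo cKO, 2 past it and lower, and 12 not past it, beside 6.25% of all genes higher and 5.62% lower, with a median log2 ratio of 0.054 beside -0.0040 for all genes. Among ligands, Bmp7 had 89 UMIs, 9.48 CPM, in control and 177 UMIs, 17.1 CPM, in Smo cKO, a ratio of 1.80 (1.39 to 2.35). Among targets, Hopx stood at 579 and 982 CPM, a ratio of 1.70 (1.64 to 1.75), and Hey1 is given above. Of the pathway inhibitors, Bambi, a pseudoreceptor, and Fst, which binds activins and some BMPs, were lower in Smo cKO. Their ratios were 0.654 (0.524 to 0.813) and 0.535 (0.344 to 0.821). The BMP inhibitor Nog went the other way by less than 1.5-fold, from 28.2 to 36.8 CPM, a ratio of 1.30 (1.11 to 1.53). Smad7 had a ratio of 1.01 (0.793 to 1.28). Smad6, an inhibitory SMAD that is itself a BMP target, had 48 and 36 UMIs and a ratio of 0.680 (0.429 to 1.07). The receptor gene Bmpr1a was at 1.14 and the signal-carrying Smad1, Smad5 and Smad4 at 1.04, 0.891 and 0.955. Within a library, RG-like cells with an Id3 UMI held more Bambi than cells without, at 1.73 and 2.04 times, although Bambi was lower in Smo cKO as a whole. Bmp7 did not differ between these cells beyond counting error, with ratios of 0.758 (0.431 to 1.27) in control and 1.28 (0.934 to 1.76) in Smo cKO.

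Other gene lists also held genes past 1.5-fold in the same cells, where 6.25% of all genes were higher in Smo cKO and 5.62% lower. Of 4 genes of the Hedgehog pathway with enough UMIs, Smo and Ptch1 were past 1.5-fold and lower in Smo cKO, Ptch1 with a ratio of 0.0578, and Gli2 (0.718) and Gli3 (1.07) were not. Of 6 medial cortex genes with enough UMIs, Rspo1 (3.63, from 12 to 48 UMIs) and Lef1 (3.83, from 26 to 110 UMIs) were past 1.5-fold and higher and none lower. The list's summed level was 563 CPM in control and 432 CPM in Smo cKO, of which Zbtb20 alone made up 505 and 360 CPM. Of 8 immediate early and stress genes, Egr1 (0.481), Fosb (0.618) and Ier2 (0.664) were past 1.5-fold and lower, and the summed level was 1061 and 811 CPM. Among the 8 RG markers, Aldoc (1.61) and Tnc (1.51) were past 1.5-fold and higher, Slc1a3 (0.728, 0.701 to 0.755) and Pax6 (0.864, 0.821 to 0.909) were lower by less than 1.5-fold, and the 8 summed to 4572 and 5656 CPM. The 8 MIPC markers summed to 267 and 378 CPM, of which Bcan made up 111 and 267 CPM, while Egfr (0.202), Olig1 (0.400) and Olig2 (0.140) were lower in Smo cKO. The microglia markers summed to 2.98 and 6.85 CPM, the endothelial markers to 7.14 and 6.18 CPM and the mural markers to 94.8 and 156 CPM in RG-like cells. Cox4i2 (31.7 and 73.5 CPM), Notch3 (24.2 and 35.3 CPM) and Pdgfrb (30.8 and 36.8 CPM) made up most of the mural sum. The mural markers Vtn and Higd1b had at most 2 UMIs in a library, and Kcnj8 and Abcc9 had no UMI. The part of these shifts in the Id3 ratio was not tested. RG-like cells with no Gfap UMI had an Id3 ratio of 3.72 (3.42 to 4.04), and without Smo cKO cells under the lowest depth of the control library the Id3 ratio was 3.25 (3.05 to 3.47).

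The ferret cortex had ID4 at high levels in radial glia and ID3 at high levels in vessels, with hardly any ID3 in radial glia. In RG-like cells, 182 in set 1 and 318 in set 2, ID4 stood at 1340.1 CPM (1246 to 1439) and 1598 CPM (1531 to 1667). ID4 had a UMI in 89.6% and 93.7% of these cells. ID1 stood at 238 CPM (199 to 281) and 198 CPM (175 to 223), and ID2 at 70.9 and 80.9 CPM. ID3 had 1 UMI in set 1 and 4 UMIs in set 2, or 1.77 and 3.0 CPM. Many ferret RG-like cells were thinly marked, with 79 and 90 of them at the minimum of 3 markers and a median of 4. The ferret table was aligned to another genome and annotation than the mouse table, so levels are not compared between species.

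ID3 was well detected in ferret vessels. Endothelial-like cells, 78 and 76 in the sets, held 357 and 332 ID3 UMIs, or 708 CPM (636 to 785) and 692 CPM (620 to 771), with a UMI in 92.3% and 80.3% of cells. ID1 was also at its highest there, at 1009 CPM (923 to 1101) and 826 CPM (746 to 911), above its level in RG-like cells. The mouse endothelial-like cells, 32 in control and 12 in Smo cKO and so under the minimum, held 504 and 530 CPM of Id1 and 623 and 481 CPM of Id3. Both genes were thus present in endothelial-like cells of mouse and ferret.

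**Figure D5:**
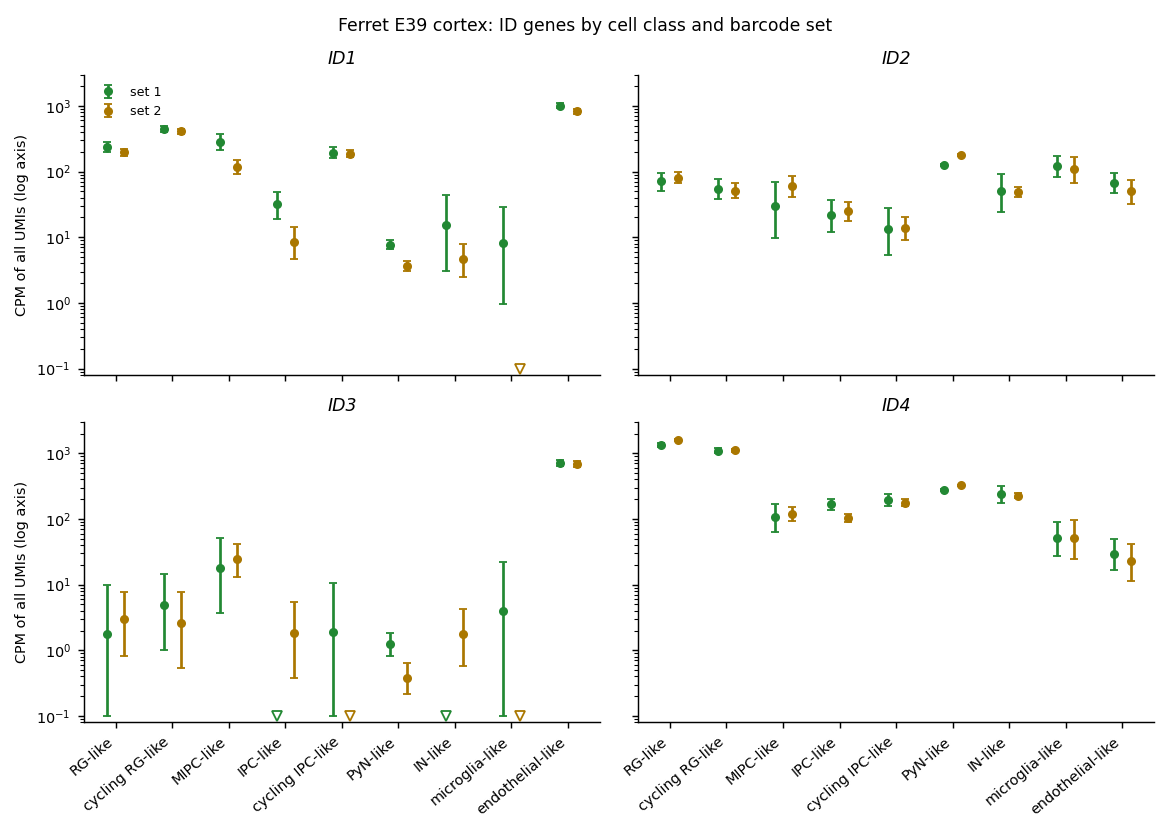
CPM of each ID gene (log axis) in each ferret cell class with at least 50 cells, barcode set 1 in green and set 2 in brown; bars are exact Poisson 95% intervals, cut at 0.1 CPM, and open triangles mark classes with no UMI. ID4 is highest in RG-like cells (1340.1 and 1598 CPM), and ID1 and ID3 in endothelial-like cells.

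Along the ferret lineage ID1 and ID4 were lower in intermediate progenitors, and ID4 was higher again in neurons. ID4 stood at 169 and 104 CPM in IPC-like cells and at 278 CPM (271 to 285) and 328 CPM (322 to 334) in PyN-like cells of sets 1 and 2. In microglia-like and endothelial-like cells, which serve here as the background for free RNA, ID4 stood at 22.9 to 52.1 CPM, below all of these. ID2 was lower in IPC-like than in RG-like cells, with ratios of 0.311 (0.156 to 0.584) and 0.309 (0.210 to 0.447), and higher in PyN-like cells, with ratios of 1.75 (1.28 to 2.46) and 2.20 (1.82 to 2.69). In sets 1 and 2, 18.2% and 20.8% of genes were at least 1.5-fold lower in IPC-like than in RG-like cells. In PyN-like against RG-like cells 25.3% and 24.1% were at least 1.5-fold higher and 27.1% and 27.9% at least 1.5-fold lower. In the mouse Id2 was already higher in IPC-like cells, by 2.27 and 3.34 times in control and Smo cKO.

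The link of ID1 with division was seen in the ferret too. Cycling RG-like cells held 1.87 (1.52 to 2.32) and 2.07 (1.78 to 2.41) times the ID1 of other RG-like cells in sets 1 and 2, where 11.0% and 8.87% of genes were at least 1.5-fold higher. Cycling IPC-like cells held 195 and 188 CPM against 31.5 and 8.54 CPM in other IPC-like cells, ratios of 6.18 (3.8 to 10.5) and 22.0 (12.9 to 40.7), where 11.6% and 12.7% of genes were at least 1.5-fold higher. The lower level in set 2 lies under the 19.1 CPM that its microglia-like cells, with no ID1 UMI, allow, and that in set 1 (19.3 to 48.7 CPM) overlaps the interval of its microglia-like cells (0.972 to 29.0 CPM), so the sizes of these ratios are not read further. ID1 was therefore higher in cycling cells in all 8 pairs of classes, 4 in each species, though under 1.5-fold in control mouse RG-like cells. ID4 was lower in cycling RG-like cells, with ratios of 0.822 (0.739 to 0.913) and 0.693 (0.646 to 0.743), while in cycling IPC-like cells its ratios were 1.16 (0.871 to 1.53) and 1.72 (1.42 to 2.08). ID2 had ratios of 0.771 (0.471 to 1.25) and 0.632 (0.452 to 0.876) in cycling RG-like and 0.612 (0.209 to 1.62) and 0.557 (0.325 to 0.939) in cycling IPC-like cells, and in set 2, where both were past 1.5-fold, 8.51% and 12.5% of genes were at least 1.5-fold lower.

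Ferret interneurons differed by ID4 as mouse interneurons did. In set 2, the 417 Nr2f2 IN-like cells held 532 ID4 UMIs, 454 CPM, and the 464 Lhx6 IN-like cells 45 UMIs, 31.6 CPM, a ratio of 14.3 (10.6 to 19.9). In set 1, with 34 cells of each kind, the values were 510 and 90.6 CPM, a ratio of 5.63 (2.58 to 14.0). ID2 was also higher in Nr2f2 IN-like cells of set 2, at 75.9 against 25.3 CPM, a ratio of 3.0 (2.02 to 4.55). ID3, which marked the Lhx6 kind in the mouse, had 2 UMIs in Lhx6 and 3 UMIs in Nr2f2 IN-like cells of ferret set 2.

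Among ferret pyramidal neurons, those with deep-layer markers held less ID4 and more ID2 than those with upper-layer markers. ID4 stood at 219 against 288 CPM in set 1, a ratio of 0.760 (0.666 to 0.865), and at 245 against 334 CPM in set 2, a ratio of 0.733 (0.688 to 0.780). ID2 had ratios of 1.57 (1.35 to 1.81) and 1.18 (1.10 to 1.27). In the mouse, deep-layer over upper-layer ratios of Id2 were 0.909 (0.784 to 1.05) in control and 1.09 (1.00 to 1.19) in Smo cKO. Within ferret RG-like cells, ID4 was higher with a HOPX UMI than without by 1.41 times in both sets (1.15 to 1.73 and 1.26 to 1.58).

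The genes whose levels followed each member most closely over classes and libraries differed between members. Over 15 mouse points, each a class in a library, Pearson's r of log2(CPM + 1) was highest to Id1 for 1810037I17Rik (0.961), Vegfb (0.959), Phgdh, Rfc1 and Ndufb6, and to Id2 for Gramd1b (0.914), Cers6, Uckl1, Arg2 and Tgfbrap1. For Id3 these were Slc44a1 (0.916), Tmem65, Nacc2, Arl4a and Car2, and for Id4 Fjx1 (0.968), Mvk, Bbip1, Fdps and Gnas. Mvk and Fdps encode enzymes of the mevalonate pathway, which leads to cholesterol. Among the members themselves r was 0.721 for Id3 with Id4, 0.666 for Id1 with Id3 and -0.745 for Id1 with Id2. Over 18 ferret points, ID3 followed the vessel genes LAMC1 (0.958), VWF (0.946) and LAMA4, with CUNH5orf24 and SLC7A5, while ID1 was closest to SPARCL1 (0.943), SPINK2, JAM2, REEP3 and FSTL1. ID2 was closest to TMSB4X (0.837), RIN2, LOC101688808, ATP6AP1 and PRKCB, and ID4 to MGAT4C (0.952), RAB6B, KIF21A, PEG3 and FAT3. The points share libraries and depth, and these correlations are descriptions.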

How the data were processed

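Single-cell RNA-seq libraries were made on the 10x Genomics Chromium platform, and the deposited tables hold whole-number UMI counts per gene and cell as the authors made them with Cell Ranger; the labels also name StringTie and Seurat and the mouse build mm10, and the ferret build is not given in the sources used here. Cells of each species were pooled in 1 table, with the library read from the barcode suffix. Rows for Id1 to Id4 and every other gene were summed within a class and divided by the class total to give CPM. No doublet caller was run. The classes, thresholds, gene lists and members were chosen with earlier results of these data known. CPM intervals were exact Poisson, shares Clopper-Pearson, and ratios conditional binomial, all at 95%. Genes compared with all others needed 50 UMIs over both groups, and called means past 1.5-fold. UMIs collapse PCR copies, and cells of 1 library are not replicates. Shares at 2000 UMIs were expected values, with shallower cells left out. Named genes were the 4 members, Smo, the 5 genes most like each member (at least 500 UMIs, no class marker) and up to 6 genes of each list with 50 UMIs and the largest log2 ratio; further list genes, and the cell splits by Hopx, Eomes, Egfr and Gfap, were described after their values were seen. Sequences came from GENCODE M21 transcripts, the first principal transcript of each gene. Scripts ran in Python 3.11.15 with numpy 2.4.6, scipy 1.17.1, pandas 2.3.3, matplotlib 3.10.9 and Biopython 1.88, and were tested on simulated data. Values of 1 list gene are not reported here.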

Additional observations from a re-analysis of the deposited data

Results flagged for a closer look

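Id1 had ratios of Smo cKO over control on opposite sides of 1 in different classes. The ratio was 1.09 in cycling RG-like cells (interval 1.00 to 1.19) and 0.660 in IPC-like cells (0.457 to 0.940). Each interval covers counting error in 1 library per genotype, and the difference between the ratios was not tested. The IPC-like level, 8.21 CPM in control and 5.42 CPM in Smo cKO, was not above that of microglia-like cells, at 10.9 and 13.4 CPM.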

How the results depend on the processing

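Each Id ratio of Smo cKO over control in RG-like cells was recomputed under 10 other settings, and no called ratio changed direction. Id3 ranged from 3.20 to 3.72, reaching 3.56 with cycling RG-like cells included and 3.72 in cells with no Gfap UMI. Id2 ranged from 1.03 to 1.15 and was 1.03 (0.952 to 1.12) where the class had to lead by 2 markers, an interval that takes in 1. Id1 ranged from 0.988 to 1.07 and Id4 from 0.936 to 1.01. The setting that left out Smo cKO cells under the lowest control depth was chosen after seeing the data. In ferret RG-like cells ID1, 210 CPM in both sets together, was 312 CPM with cycling cells included and 238 CPM in set 1 alone, and ID2, 78.0 CPM, was 65.7 CPM with cycling cells. ID4, 1521 CPM, was 1464 CPM with at least 2 markers, 1649.9 CPM where the class led by 2 markers, 1586 CPM as the mean of single cells, 1321 CPM with cycling cells, 1340.1 CPM in set 1 and 1598 CPM in set 2. ID3 ranged from 1.77 to 3.51 CPM. Genes at least 1.5-fold higher in Smo cKO numbered 693, against 275 at 2-fold and 2607 with genes of at least 1 UMI, and genes lower numbered 623, against 184 and 2206. No paired analysis was possible because each genotype has 1 library, the labels give the mouse samples no replicate number, and a block needs at least 2 pairs.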
